A study of Mus musculus with 28 samples.

Results

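Imprinted genes were followed through the pituitary transcriptome of 28 mice: Mest, Dlk1, Meg3, Igf2, H19, Cdkn1c, Peg3, Plagl1 and Grb10, which are 9 of the 32594 genes in the count table. Mest was chosen by its counts, which are higher after restraint in these same mice, and the other 8 because they are imprinted genes known for their part in growth. All comparisons of Mest that hold restraint are therefore a description without a test. The mice were female and male C57BL/6J, aged 8 weeks on arrival. Their whole pituitaries were collected in 4 conditions per sex: home cage control, restraint, paradoxical sleep deprivation (PSD) and PSD + restraint. PSD lasted 12 h on small platforms above water, restraint lasted 20 min, and glands were taken 18 h after the end of PSD and, in restrained mice, 10 min after release. Each female group held 4 mice, and the male groups held 4 control, 2 restraint, 3 PSD and 3 PSD + restraint mice. All mice, controls included, had been adapted to the platforms on the days before. The labels name no transgene or deletion. Comparisons with control share the same control mice within a sex.

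An imprinted gene is transcribed mainly from the allele of a single parent, because the copy from the other parent carries DNA methylation or other silencing marks set in the germ line. Genes expressed from the paternal copy, such as Igf2, Dlk1, Peg3, Plagl1 and Mest, tend to promote growth before birth, while the maternally expressed H19, Cdkn1c and Grb10 tend to restrain it. Many imprinted genes remain active in the adult pituitary, where DLK1, GRB10 and CDKN1C have been linked to growth hormone cells, growth factor signalling and the arrest of progenitors. C57BL/6J is an inbred strain whose parental alleles have the same sequence, so counts per gene give the sum of both copies and hold no measure of imprinting itself.

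The members lie in 6 places of the mouse genome (GRCm38, the same assembly as mm10, GENCODE M21). Mest lies on chromosome 6 from 30723547 to 30748465 on the plus strand. Dlk1 (chromosome 12, 109452823 to 109463336, plus strand) and the long noncoding RNA gene Meg3 (109541001 to 109571726, plus strand) form a cluster, with 77.7 kb between them. Igf2 (chromosome 7, 142650766 to 142666816, minus strand) and the noncoding H19 (142575529 to 142578143, minus strand) are 72.6 kb apart, and Cdkn1c (143458339 to 143461050, minus strand) lies 791.5 kb from Igf2. Peg3 is on chromosome 7 from 6703892 to 6730431 (minus strand), Plagl1 on chromosome 10 from 13060504 to 13131694 (plus strand) and Grb10 on chromosome 11 from 11930508 to 12038683 (minus strand).

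The start regions of Mest, the member chosen for its response, and its intronic miRNA are shown. Each window spans the 250 bases before and the 50 bases after a RefSeq transcript start (GRCm38.p6), 5′ to 3′ on the strand of the gene. Capitals mark TGCCGC or its reverse complement GCGGCA, the letters bound by ZFP57, a zinc finger protein that protects imprints when its site is methylated.
Mest, upstream start, chr6:30733256-30733555: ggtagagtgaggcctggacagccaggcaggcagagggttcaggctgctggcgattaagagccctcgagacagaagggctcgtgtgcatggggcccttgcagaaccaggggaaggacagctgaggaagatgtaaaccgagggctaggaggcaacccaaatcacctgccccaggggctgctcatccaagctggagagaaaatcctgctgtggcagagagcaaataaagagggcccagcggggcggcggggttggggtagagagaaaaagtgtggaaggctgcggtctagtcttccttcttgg
Mest, main start, chr6:30737800-30738099: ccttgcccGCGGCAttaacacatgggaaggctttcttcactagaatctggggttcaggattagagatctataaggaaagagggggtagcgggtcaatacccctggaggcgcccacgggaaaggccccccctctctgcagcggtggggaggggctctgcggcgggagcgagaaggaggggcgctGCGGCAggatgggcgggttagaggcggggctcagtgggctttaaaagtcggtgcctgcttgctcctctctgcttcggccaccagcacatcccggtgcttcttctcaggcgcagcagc
The window of the main start held 2 such matches and 17 CG dinucleotides, and the upstream window held no match and 8 CG. The median over all 32851 RefSeq promoter windows was 7 CG, and 11.6% of them held the ZFP57 letters on either strand. Of the 14 windows of the 7 members with an entry, 6 held them, of which 2 are near-identical Mest windows. H19 and Cdkn1c had no entry.

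The other motifs searched on both strands were the cAMP response element TGACGTCA (in 1.79% of all windows), the NR4A site AAAGGTCA (1.51%), the glucocorticoid receptor core ACANNNTGT (6.85%) and the CTCF core motif (0.0365%). None of the Mest windows held any of these, which says only that the letters are not in these 300 bases. Among the members the cAMP response element stood in a window of Peg3 and in a window of Meg3, shown here with that element in capitals.
Peg3, chr7:6730370-6730669, minus strand: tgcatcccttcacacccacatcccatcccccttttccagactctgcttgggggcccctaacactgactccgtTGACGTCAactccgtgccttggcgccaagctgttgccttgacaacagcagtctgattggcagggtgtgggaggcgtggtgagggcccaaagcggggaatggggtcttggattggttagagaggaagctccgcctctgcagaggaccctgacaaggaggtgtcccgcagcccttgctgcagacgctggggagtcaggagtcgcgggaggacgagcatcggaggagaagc
Meg3, chr12:109540746-109541045, plus strand: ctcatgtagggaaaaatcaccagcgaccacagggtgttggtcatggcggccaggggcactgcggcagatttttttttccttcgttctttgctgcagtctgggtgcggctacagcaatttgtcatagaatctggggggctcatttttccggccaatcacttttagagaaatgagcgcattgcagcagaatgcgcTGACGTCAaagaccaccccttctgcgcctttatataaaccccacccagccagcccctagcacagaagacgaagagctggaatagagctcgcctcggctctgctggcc
A match is a run of letters and not evidence of binding. The response values of Peg3 and Meg3, which carry the element, and of Mest, which does not, follow with the results. Zdbf2, an imprinted gene outside the members, also holds the element in a window (chr1:63273019-63273318), and its values are given below. Whether the element goes with a response was not tested.

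An intron of Mest holds the miRNA gene Mir335. Its 2 mature products are printed with the seed, bases 2 to 8, in capitals.
miR-335-5p: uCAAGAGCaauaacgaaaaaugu
miR-335-3p: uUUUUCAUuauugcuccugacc
The seeds of the 2 arms differ, and the libraries, which were made from polyadenylated RNA, do not measure the mature miRNAs.

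Values are CPM, the count of a gene relative to its library size with TMM factors. Total counts per mouse lay between 14024465 and 52948531 (median 33389717). A gene was called when its Benjamini-Hochberg adjusted p from edgeR's quasi-likelihood test, taken over all genes tested, was at most 0.05 and its log2 fold change at least 0.32 in size. All 9 members passed the filter on low counts in every fit. As whole glands were sequenced, fewer cells of a type and less RNA per cell cannot be told apart. No marker gene of the pituitary cell types examined was at 0 over all mice. A few glands stood apart from the rest. PSD female 3 held 5335 CPM of Ttr (highest of the other mice 6.28) and more of all 8 choroid plexus genes examined than any other mouse. PSD female 1 had the highest sum of forebrain markers (65.8 CPM, median 12.3). Male control 1 had the lowest sum of neurointermediate lobe genes, 11660 CPM against a median of 70410. That sum is nearly all Pomc, which corticotropes express too.

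Per kilobase of annotated exon, which is the scale used to compare genes, Meg3 was the most abundant member, with a median of 362 CPM per kb over the 28 mice (326 to 416). Dlk1 followed with 182 (132 to 264), Mest with 123 (75.5 to 360), Plagl1 with 82.7 (58.9 to 130) and Peg3 with 58.1 (44.6 to 71.5). The ranges of Dlk1 and Mest overlapped, as did those of Mest and Plagl1 and of Plagl1 and Peg3. A wide gap separated these from Cdkn1c at 7.55 (4.39 to 12.3), Grb10 at 5.15 (3.20 to 8.65), Igf2 at 2.65 (1.59 to 27.3) and H19 at 1.53 (0.643 to 2.91), whose ranges overlapped from each gene to the next. The order of Dlk1 and Mest depended on restraint. In the 13 restrained mice the medians were 233.5 CPM per kb for Mest (149 to 360) and 183 for Dlk1 (149.5 to 220), with overlap, and in the 15 others 104 (75.5 to 127) and 175 (132 to 264), without overlap. On this scale the pituitary had much Dlk1, Meg3 and Mest RNA and little Igf2 and H19 RNA. The scale is approximate, since reads had been counted on UCSC gene models and exon lengths are from GENCODE M21. Igf2 shares 16048 bases with Gm49394 on its own strand, and whether this lowered its counts was not tested. Among 42 other imprinted genes, the most abundant were Nnat (1371 CPM per kb), Gnas (491), Nap1l5 (128), Rian (96.1) and Blcap (44.0).

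Mest encodes a protein of the alpha/beta hydrolase family and is expressed from the paternal allele. In home cage control females it was counted at 363, 374, 446 and 448 CPM, and in restraint females at 790, 1035, 588 and 921 CPM. PSD females had 340, 468, 385 and 454 CPM, and PSD + restraint females 1420, 1011, 1139 and 853 CPM. The restrained females all lay above the females that were not restrained, with or without PSD. Control males had 298, 337, 449 and 409 CPM and the 2 restraint males 692 and 674 CPM. PSD males had 502, 398 and 464 CPM and PSD + restraint males 926, 1052 and 717 CPM. Over both sexes the 13 restrained mice ranged from 588 to 1420 CPM (median 921) and the 15 others from 298 to 502 CPM (median 409), so the ranges did not overlap.

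**Figure D1:**
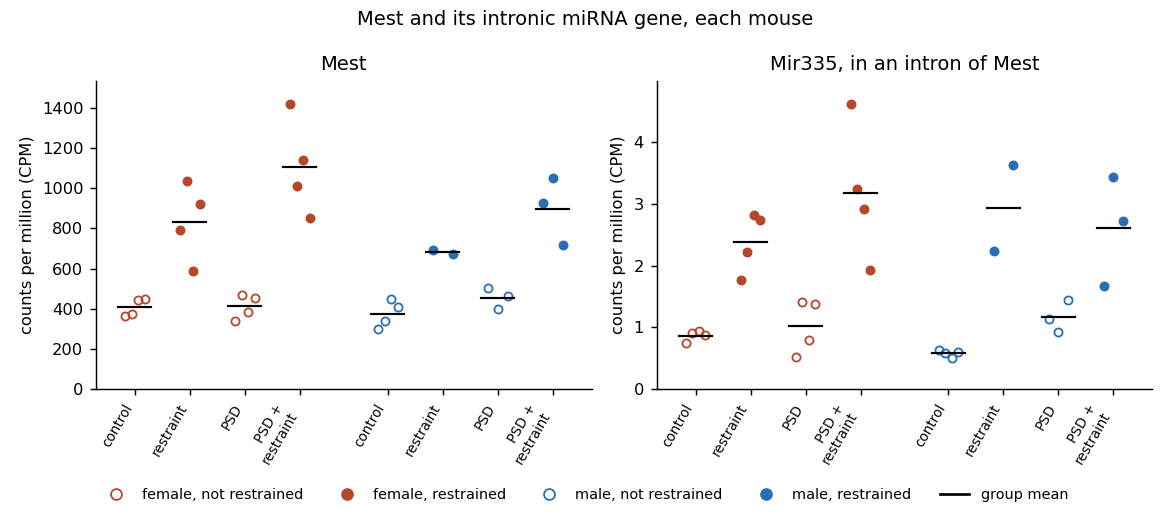
CPM of Mest (left) and of the miRNA gene Mir335 in an intron of Mest (right) in each of the 28 mice; points are mice, filled where restrained, and black lines are group means. For both genes the lowest restrained mouse (588 and 1.67 CPM) lies above the highest mouse that was not restrained (502 and 1.44 CPM).

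On the log2 scale Mest differed from control by 1.04 (SE 0.17) after restraint and by 1.45 (SE 0.17) after PSD + restraint in females, and by 0.87 (SE 0.16) and 1.27 (SE 0.14) in males. Restrained and unrestrained mice that had all undergone PSD differed by 1.43 (SE 0.17) in females and 0.98 (SE 0.16) in males. The interaction of PSD and restraint over all mice was 0.25 (SE 0.18), and the responses of the sexes differed by 0.16 (SE 0.26) for restraint and 0.17 (SE 0.24) for PSD + restraint. These differences chose Mest and carry no test. Leaving out any mouse kept the female restraint value between 0.92 and 1.17 and the male value between 0.78 and 0.98.

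PSD alone did not choose Mest and was tested. Mest gave a log2 fold change of 0.02 (SE 0.17, adjusted p = 0.963) in females, 0.29 (SE 0.15, adjusted p = 0.598) in males and 0.14 (SE 0.12, adjusted p = 0.575) over all mice. The control and PSD ranges overlapped in both sexes. Females and males did not differ by more than the spread between mice either, at 0.13 (SE 0.09, adjusted p = 0.277) over all mice.

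The neighbourhood of Mest was read as well, taking every gene within 300 kb on chromosome 6. Mir335 had 10 to 168 counts per mouse and ranged from 1.67 to 4.62 CPM in restrained mice and from 0.497 to 1.44 CPM in the others. Because it lies inside an intron, these reads come from RNA that still holds that intron or from the hairpin transcript, and the measure shares its transcript with Mest. Per 1000 Mest counts there were 3.21 Mir335 counts (median; 1.80 to 5.38) in restrained mice and 2.11 (1.11 to 3.09) in the others, and those ranges overlapped.

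Copg2, which encodes a coat protein subunit of Golgi vesicles, runs against Mest on the minus strand (30747554 to 30896794), and the tails of the 2 genes share 912 bases. It rose by 0.30 log2 units after restraint (adjusted p = 0.00345) and by 0.35 after PSD + restraint (adjusted p = 0.000104) over all mice, with edgeR's quasi-likelihood test; the smaller value is under the fold limit. Copg2 measured 109 to 149 CPM in restrained mice and 85.7 to 108 CPM in the others, again without overlap. The library kit keeps strand, but whether counting used it is not given in the sources used here, so the part of Mest reads in the Copg2 counts was not tested. Igf2 likewise overlaps Gm49394 on its own strand (16048 bases) and Igf2os on the other (7124 bases), Meg3 overlaps Gm26906 (3096 bases) and Cdkn1c overlaps Gm44732 (892 bases). Klf14, a maternally expressed transcription factor gene without introns, is 207.6 kb away and rose by 0.68 (adjusted p = 0.0152) and 0.94 (adjusted p = 0.000115). On the other side, Cpa4, a carboxypeptidase gene 131.1 kb from Mest, rose by 0.83 (adjusted p = 0.00643) and 1.004 (adjusted p = 0.000189). Tmem209, 213.8 kb from Mest, had -0.14 (adjusted p = 0.116) after restraint and -0.19 (adjusted p = 0.00247) after PSD + restraint, which like the smaller value of Copg2 is past the limit on p but under that on fold. Cep41, a ciliary gene between Cpa4 and Mest, had -0.01 (adjusted p = 0.976) and 0.04 (adjusted p = 0.707), and Cpa5 had 0.14 (adjusted p = 0.832) and 0.28 (adjusted p = 0.167). The genes that rose did not form an unbroken run along the chromosome.

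**Figure D2:**
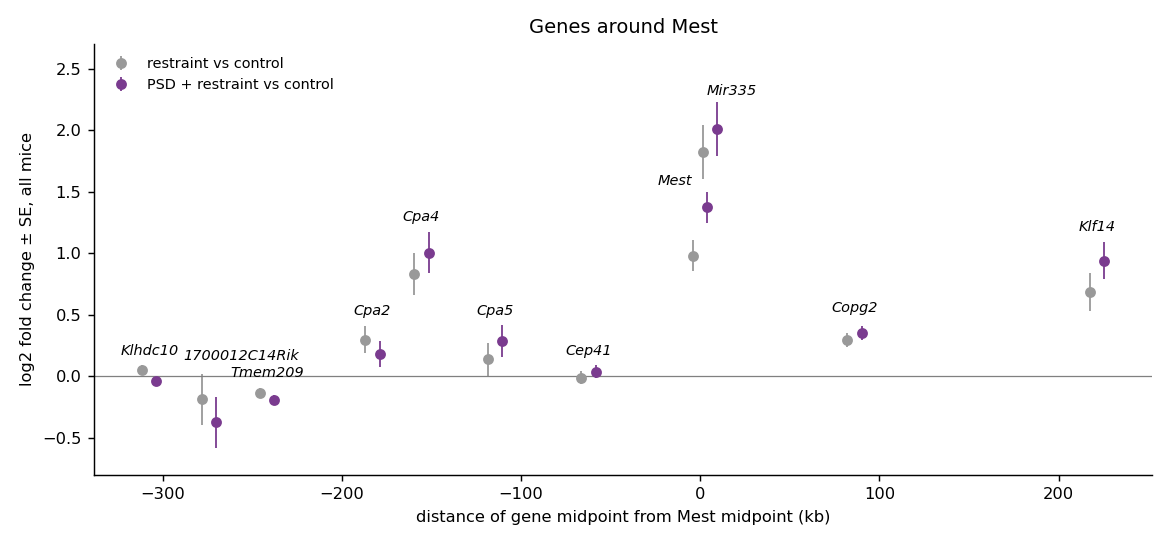
Log2 fold change ± SE over all mice for restraint (grey) and PSD + restraint (purple) against control, for each gene within 300 kb of Mest that reached 1 CPM in a restrained mouse, by distance of its midpoint from the midpoint of Mest in kb. Mest, Mir335, Cpa4, Klf14 and Copg2 lie above 0, while Cep41 (-0.01 and 0.04) next to Mest lies at 0.

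Between mice of the same group, Mest and Copg2 varied together, with r = 0.759 (adjusted p = 0.00087, Spearman rho = 0.781, adjusted p = 0.0013, permutation within groups) over 28 mice. The value was 0.732 within females, 0.832 within males and 0.724 without the 2 mice farthest from the median of Copg2. Copg2 ranked 2 among 18935 other genes by its within-group r with Mest. Mest and Klf14 gave r = 0.403 (adjusted p = 0.134, permutation test). These pairs belong to a family of 29 relations chosen after seeing the data. Over all 28 mice with the group means left in, the genes most like Mest were Dusp14 (r = 0.941), Copg2 (0.933) and Zc3h12c (0.929).

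The other 8 members gave few calls. With shares of all genes as low as those given beside them, these counts say nothing particular about the members. None of the 8 was called after restraint in females, where 0.543% of all genes tested were called, nor in males, where 0.296% were. After PSD, 0 of 9 members were called in females (0.0277% of all genes) and in males (0.00547%). After PSD + restraint, 0 of 8 were called in females (2.2% of all genes) and in males (2.56%). The number of genes called over all genes depended on single mice. In females it was 5 for PSD, with 557 without PSD female 4 and 0 without control female 2, and 398 for PSD + restraint, with 613 without control female 1 and 158 without PSD + restraint female 1. Restraint after PSD, compared with PSD alone, gave 1 of 8 in females (0.941% of all genes) and 0 of 8 in males (0.285%). With all mice in a single fit, restraint (1.14% of all genes), PSD (0.671%), PSD + restraint (5.46%) and the interaction (0%, with 743 genes at an unadjusted p under 0.05) gave 0 members each. The median log2 fold change of the 8 after PSD + restraint was 0.20 in females and 0.01 in males, beside 0.01 and -0.01 over all genes tested.

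**Figure D3:**
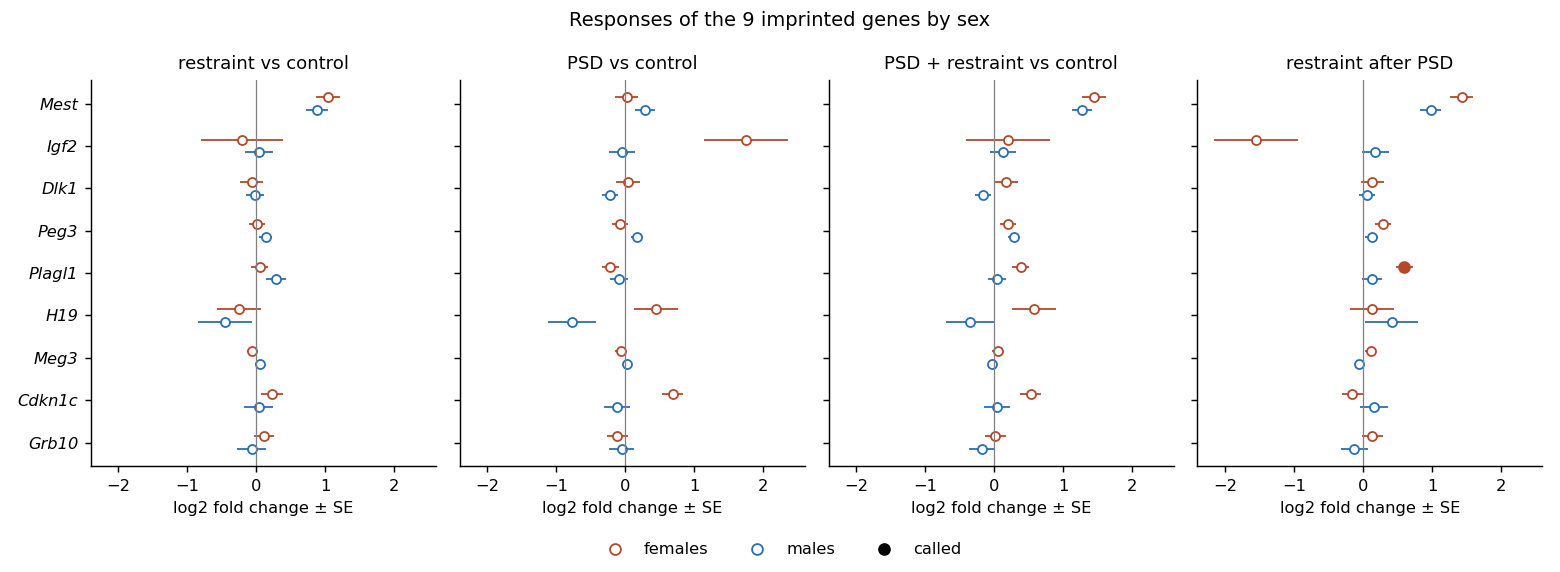
Log2 fold change ± SE of the 9 genes in females (red) and males (blue) for restraint, PSD and PSD + restraint against control and for restraint after PSD against PSD alone. Filled points are called; open points are not called or, for Mest in panels that hold restraint, not tested. Mest lies between 0.87 and 1.45 in those panels, and the filled point is Plagl1 in females (0.60).

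Igf2 encodes the fetal insulin-like growth factor and was low in nearly all mice. Control females had 19.6, 24.1, 11.5 and 9.95 CPM, restraint females 20.2, 15.7, 10.0 and 9.26 CPM, and PSD + restraint females 19.5, 17.0, 14.4 and 23.6 CPM. PSD females had 32.1, 13.4, 156 and 16.0 CPM, so that PSD female 3 stood alone. Males ranged from 9.09 to 16.9 CPM with no separation of groups. The log2 fold change with PSD in females was 1.75 (SE 0.60, adjusted p = 0.147) and fell to 0.33 without PSD female 3. That mouse is the gland with the choroid plexus genes, and with a choroid plexus score as covariate the value was 0.12 (adjusted p = 0.901). As no other mouse had a high score, that fit in effect sets the same mouse aside. In males PSD gave -0.05 (SE 0.18, adjusted p = 0.962). The genes most like Igf2 over the 28 mice were Slc13a4 (r = 0.944), Col8a2 (0.933) and Ptgds (0.928), a likeness that includes PSD female 3.

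Dlk1 encodes a transmembrane relative of the Notch ligands that is abundant in growth hormone cells. It ranged from 749 to 1495 CPM, both ends of which were PSD females. Control females had 922, 1152, 875 and 992 CPM and control males 1351, 936, 1239 and 1198 CPM. Its log2 fold changes with restraint were -0.07 (SE 0.17, adjusted p = 0.965) in females and -0.03 (SE 0.13, adjusted p = 0.9998) in males. In males PSD gave -0.22 (SE 0.12, adjusted p = 0.615). Groups overlapped throughout.

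Peg3, a large zinc finger protein gene, lay between 594 and 953 CPM. PSD + restraint males had 913, 814 and 869 CPM, above the control males at 781, 733, 730 and 594 CPM. The log2 fold change was 0.29 (SE 0.09, adjusted p = 0.0969) and was not called. It was 0.38 (adjusted p = 0.0430), and called, with a neurointermediate lobe score as covariate. PSD + restraint females had 935, 864, 953 and 712 CPM beside 794, 752, 744 and 734 CPM in controls, a difference of 0.20 (SE 0.12, adjusted p = 0.342). Over all mice PSD + restraint gave 0.25 (SE 0.08, adjusted p = 0.0390), past the limit on p but under that on fold.

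Plagl1, also called Zac1, encodes a zinc finger transcription factor that is linked to cell cycle arrest and regulates other imprinted genes. PSD + restraint females had 1013, 753, 826 and 646 CPM and PSD females 460, 521, 513 and 647 CPM. The groups overlapped by the lowest of the former and the highest of the latter, 646 against 647 CPM. The log2 difference was 0.60 (SE 0.13, adjusted p = 0.0287), and this was the only call among the 8 members for a treatment in the fits by sex. It was not called without PSD female 1, 2 or 3 or without PSD + restraint female 1 or 3, and the values with each female left out ran from 0.47 to 0.70 (adjusted p 0.0120 to 0.107). With a connective tissue score or a choroid plexus score as covariate the values were 0.58 (adjusted p = 0.0982) and 0.57 (adjusted p = 0.113). Against control females at 573, 649, 591 and 686 CPM, PSD + restraint gave 0.38 (SE 0.13, adjusted p = 0.105) and PSD -0.22 (SE 0.13, adjusted p = 0.345). In males restraint after PSD gave 0.13 (SE 0.14, adjusted p = 0.814). The responses of the sexes to PSD + restraint differed by 0.33 (SE 0.19, adjusted p = 0.743).

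**Figure D4:**
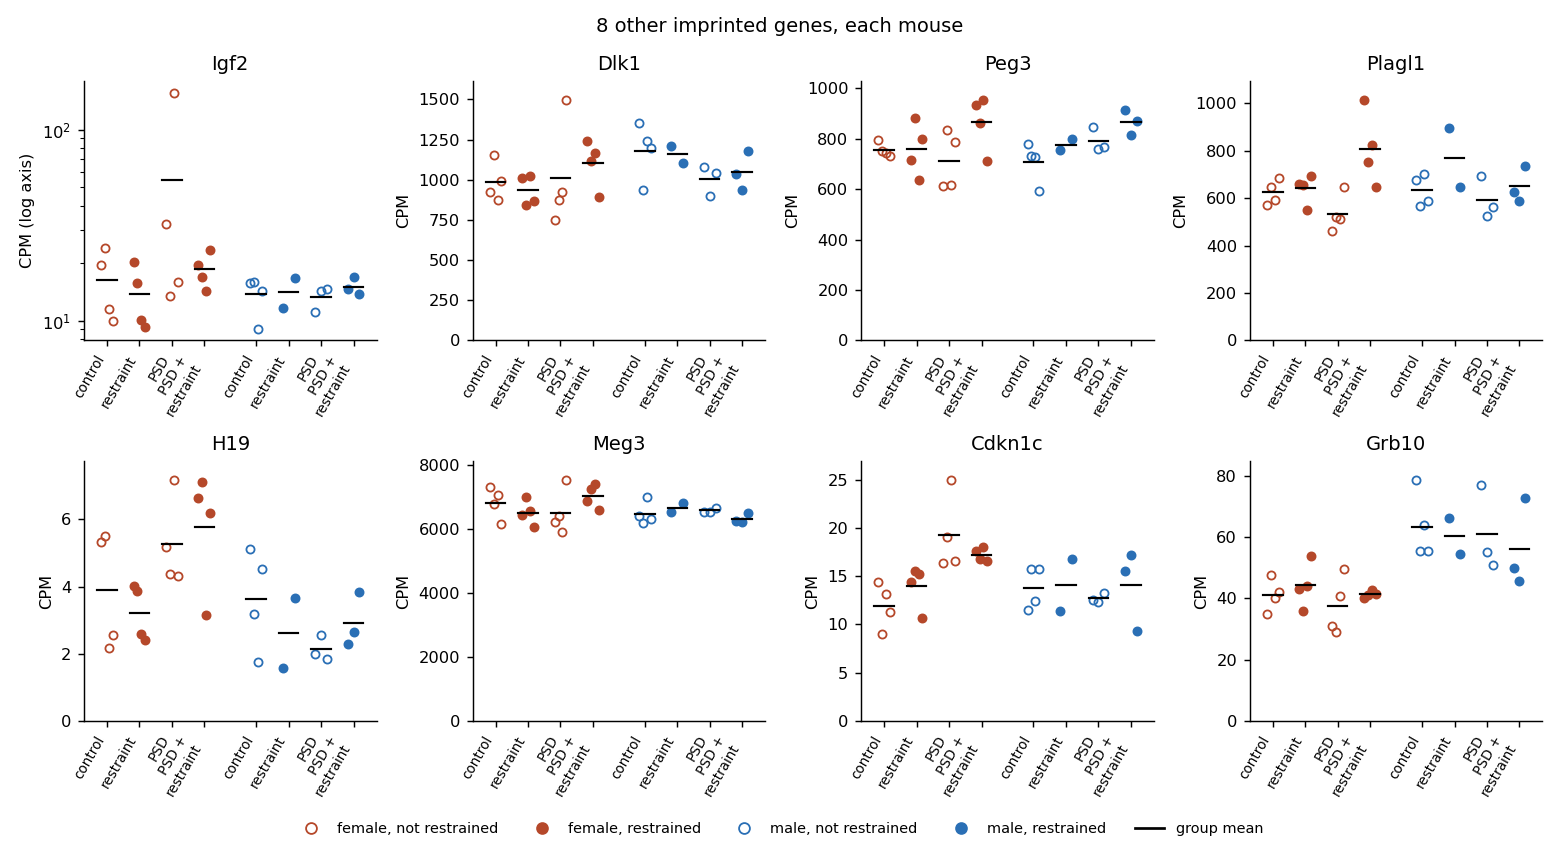
CPM of the 8 other members in each of the 28 mice, by sex and condition; points are mice, filled where restrained, and black lines are group means. The axis of Igf2 is logarithmic, where PSD female 3 lies at 156 CPM, and all other axes start at 0.

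H19, a noncoding RNA expressed from the maternal allele, was the least abundant member, at 1.58 to 7.16 CPM. Control females had 5.34, 5.52, 2.17 and 2.57 CPM, PSD females 5.19, 4.37, 7.16 and 4.32 CPM and PSD + restraint females 6.63, 7.13, 3.14 and 6.20 CPM. Control males had 5.12, 3.17, 1.74 and 4.51 CPM and PSD males 1.99, 2.56 and 1.85 CPM. PSD moved it by 0.44 (SE 0.32, adjusted p = 0.460) in females and -0.77 (SE 0.35, adjusted p = 0.553) in males. The test of that difference between the sexes gave 1.21 (SE 0.50, adjusted p = 0.406). The spread of H19 within control groups was as wide as most differences between groups.

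Meg3, the noncoding partner of Dlk1, was the steadiest member. It ranged from 5898 to 7523 CPM over all mice, and both ends were PSD females. The log2 fold change of a treatment within a sex that was farthest from 0 was 0.11 (SE 0.08, adjusted p = 0.711), for restraint after PSD in females. Restraint gave -0.06 (SE 0.08, adjusted p = 0.903) in females and 0.04 (SE 0.06, adjusted p = 0.9998) in males.

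Cdkn1c encodes p57, a cyclin-dependent kinase inhibitor. PSD females had 16.4, 19.1, 25.0 and 16.6 CPM, all above the control females at 14.4, 8.96, 13.1 and 11.3 CPM. PSD + restraint females had 17.6, 16.8, 18.0 and 16.6 CPM, which also lay above all controls, while restraint females had 14.4, 15.5, 15.3 and 10.6 CPM and overlapped with them. The log2 fold changes were 0.69 (SE 0.15, adjusted p = 0.0994) with PSD and 0.53 (SE 0.15, adjusted p = 0.0735) with PSD + restraint, and neither was called by edgeR. DESeq2 called both, at 0.54 (adjusted p = 0.00445) and 0.41 (adjusted p = 0.0222). The edgeR value was called with PSD female 4 left out (0.75, adjusted p = 0.0317) for PSD and with control female 1 left out (0.62, adjusted p = 0.0445) for PSD + restraint, and PSD without PSD female 3 gave 0.53 (adjusted p = 0.226).

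In males Cdkn1c did not follow this pattern: control males had 11.5, 15.7, 12.4 and 15.8 CPM, and PSD males 12.5, 12.4 and 13.3 CPM, a log2 fold change of -0.11 (SE 0.19, adjusted p = 0.905). The PSD responses of the sexes differed by 0.80 (SE 0.26, unadjusted p = 0.0044 from edgeR), which after adjustment over all genes was not called (adjusted p = 0.303). The summed level of the neurointermediate lobe genes was 71370 to 167200 CPM in PSD females, 71540 to 103200 in PSD + restraint females and 37270 to 69210 in control females. Nearly all of this sum was Pomc (36567 to 164440 CPM in females, beside at most 2652 CPM of Pcsk2). Corticotropes express Pomc too, so the sum does not measure the lobe alone. In males the summed level was 66960 to 103200 CPM in PSD mice and 11660 to 64600 in controls. With the score of these genes, their mean log2 CPM, as covariate, Cdkn1c in females gave 0.47 (adjusted p = 0.566) with PSD and 0.36 (adjusted p = 0.455) with PSD + restraint. The summed levels of PSD and control mice did not overlap in either sex, so this fit may not separate the score from PSD. The part of gland makeup in the Cdkn1c values was not tested.

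Grb10 encodes an adaptor that binds the insulin and IGF1 receptors and dampens their signal. No treatment moved it by more than 0.18 log2 units in size in either sex. Control females had 34.9, 47.7, 40.0 and 42.2 CPM and restraint females 43.1, 35.9, 44.2 and 53.8 CPM, with a log2 fold change of 0.11 (SE 0.15, adjusted p = 0.906). Its values differed mainly between the sexes.

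Sex was tested over all mice with treatment in the model, where 14.9% of all genes were called. Of the 9 members, 1 was higher and 1 lower in females. Grb10 had a median of 41.3 CPM in females (29.1 to 53.8) and 55.6 CPM in males (45.9 to 78.6), a log2 difference of -0.56 (SE 0.09, adjusted p = 1.7e-05). Among home cage controls alone, where 10.7% of all genes were called, it was -0.63 (SE 0.17, adjusted p = 0.0130), with all 4 males above all 4 females. H19 had a median of 4.34 CPM in females (2.17 to 7.16) and 2.602 CPM in males (1.58 to 5.12), a log2 difference of 0.64 (SE 0.20, adjusted p = 0.0153). In home cage controls alone H19 gave 0.08 (SE 0.33, adjusted p = 0.911), and there the sexes overlapped widely. The other 7 members were not called for sex in either fit. The tests of whether a response differed between the sexes called no gene at all for restraint, PSD or PSD + restraint (0% of genes each), with 804, 2038 and 1363 genes at an unadjusted p under 0.05 by edgeR. DESeq2 called 0, 26 and 9 genes there, none of them a member.

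Grb10 followed growth hormone. Over the 28 mice the genes most like it were Htatsf1 (r = 0.931), Gh (0.921) and Golm1 (0.898). Gh, the hormone gene of somatotropes, had 59892 to 121630 CPM in females and 109670 to 226160 CPM in males, so it differed between the sexes in the same direction. After the group means were removed, Grb10 and Gh still varied together, with r = 0.827 (adjusted p = 0.00087) and rho = 0.793 (adjusted p = 0.0013) by permutation. The value of r was 0.799 within females, 0.857 within males and 0.750 without the 2 mice farthest from the median of Gh. Dlk1 (r = 0.760, adjusted p = 0.00087) and Plagl1 (r = 0.648, adjusted p = 0.00889) also varied with Gh, with rho = 0.723 and 0.646 (adjusted p = 0.0013 and 0.0109, permutation). Cdkn1c ran the other way, with r = -0.701 (adjusted p = 0.014) and rho = -0.683 (adjusted p = 0.0143), by the same permutation test. Cdkn1c rose and Grb10 fell with the neurointermediate lobe score between mice of a group (r = 0.576, adjusted p = 0.00841, and r = -0.721, adjusted p = 0.00029, permutation). Shares of a library are linked, since more reads of 1 lobe leave fewer for another. The makeup of the glands was not measured apart from these genes.

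**Figure D5:**
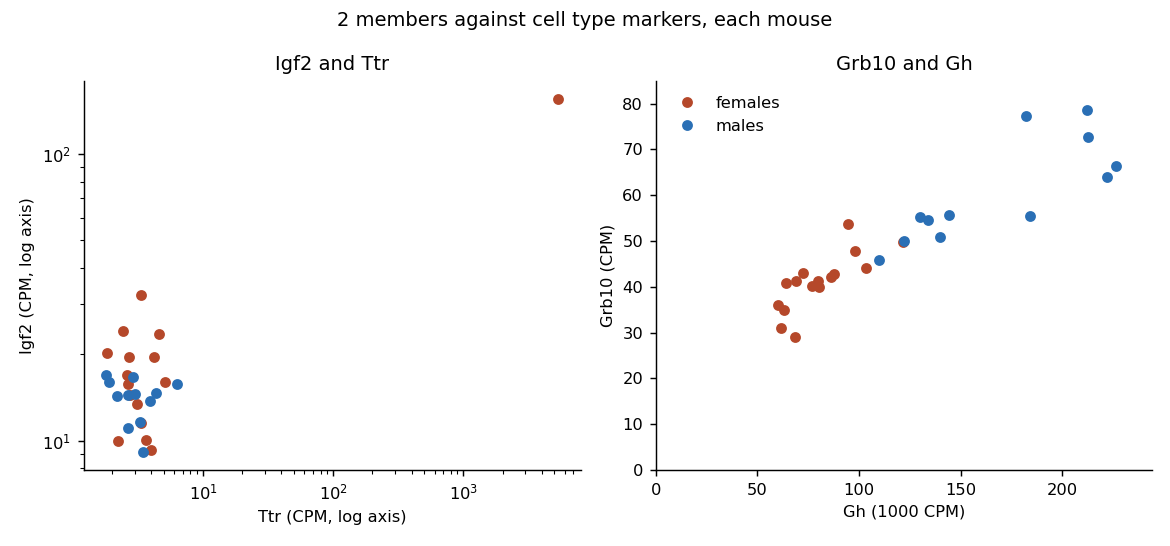
Left, Igf2 against Ttr in CPM on log axes; right, Grb10 in CPM against Gh in 1000 CPM, for each of the 28 mice, females red and males blue. PSD female 3 stands alone at 5335 CPM of Ttr and 156 CPM of Igf2, and Grb10 rises with Gh in females and in males.

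Members of a cluster share regulatory elements, so all 36 pairs of members were compared between mice after removal of the group means. Of these pairs, 5 had an adjusted p of at most 0.05 by permutation for Pearson's r. Igf2 and H19, neighbours whose expression depends on the same imprinting control region on opposite parental alleles, gave r = 0.604 (adjusted p = 0.00468) and rho = 0.750 (adjusted p = 0.0128). The r was 0.671 in females, 0.707 in males and 0.721 without the 2 mice farthest from the median of Igf2. Among 18935 other genes, Igf2 ranked 49 by its within-group r with H19, and H19 ranked 270 by its r with Igf2. By permutation, Igf2 also varied with Gh by rank (rho = -0.586, adjusted p = 0.0187) but not by r (-0.439, adjusted p = 0.24). With the connective tissue score Igf2 and H19 gave r = 0.36 and 0.275 (adjusted p = 0.0987 and 0.442, permutation). Those r were 0.547 and 0.698 within females and -0.267 and -0.285 within males. A shared cell source was not tested. Dlk1 and Meg3, whose shared cluster is likewise under 1 control region, were not past the limit. They gave r = 0.484 (adjusted p = 0.290) and rho = 0.331 (adjusted p = 0.329, permutation test). Their r was 0.498 in females, 0.440 in males and 0.189 without the 2 mice farthest from the median of Dlk1.

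The other pairs past the limit join genes on different chromosomes. All 4 of them hold a gene that varied with Gh, as Igf2 did by rank. Dlk1 and Plagl1 gave r = 0.681 (adjusted p = 0.00522), and without the 2 farthest mice 0.613. Dlk1 and Grb10 gave r = 0.648 (adjusted p = 0.0120), and without those mice 0.534. Plagl1 and Grb10 gave r = 0.616 (adjusted p = 0.0120), with 0.431 in females and 0.841 in males. Cdkn1c and Grb10 gave r = -0.629 (adjusted p = 0.0395), for which rho was -0.581 (adjusted p = 0.0745). The rho values of the other 3 were 0.656, 0.625 and 0.596 (adjusted p = 0.0128, 0.0269 and 0.0289, permutation). Mest was in no pair past the limit.

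Some of 42 other imprinted genes rose with restraint, while most of that list was not called. It had 35 genes tested in females, 36 in males and 39 over all mice. After PSD + restraint 6 were higher and 0 lower in females, 7 higher and 0 lower in males, and 8 higher and 0 lower over all mice, where 2.2%, 2.56% and 5.46% of all genes were called. Restraint alone gave 4 higher in females, 2 in males and 4 over all mice, with 0 lower each time, beside 0.543%, 0.296% and 1.14% of all genes. These counts include the neighbours of Mest described above. Copg2 and Klf14 are among the 8 for PSD + restraint over all mice, and Klf14 is among the 4 for restraint over all mice. The list was not tested against other genes or against the members. PSD alone gave 0 calls in females, in males and over all mice. Restraint after PSD gave 5 higher in females (0.941% of all genes) and 0 in males (0.285%). The medians of the list after PSD + restraint were 0.14 in females and 0.10 in males.

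Nap1l5, a paternally expressed nucleosome assembly protein gene, had 241 to 405 CPM in restrained mice and 169 to 236 CPM in the others, without overlap. It gave 0.56 (SE 0.08, adjusted p = 0.000118) with restraint and 0.72 (SE 0.08, adjusted p = 5.51e-07) with PSD + restraint over all mice. Inpp5f, a phosphoinositide phosphatase gene, gave 0.54 (adjusted p = 0.000606) and 0.72 (adjusted p = 2.34e-06), and its highest unrestrained mouse (84.5 CPM) just passed the lowest restrained mouse (83.7 CPM). Zdbf2, a zinc finger gene expressed from the paternal allele, gave 0.92 (adjusted p = 0.00264) and 1.26 (adjusted p = 9.38e-06) by the same edgeR test. Zrsr1, the retrogene of a splicing factor, gave 0.39 (adjusted p = 3.52e-05) with PSD + restraint. Peg10, a domesticated retrotransposon gene, was called after restraint in males (0.80, adjusted p = 0.0186) but not in females, and the difference between the sexes was -0.58 (adjusted p = 0.9998). Usp29, the neighbour of Peg3, was called after PSD + restraint in males (0.49, adjusted p = 0.0425), where Peg3 was not.

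By sex, 2 of the 39 were higher in females and 5 lower, a share near the 14.9% of all genes called for sex, so the count says nothing particular about imprinted genes. Nnat, the proteolipid gene neuronatin, had a median of 2237 CPM in females and 5128 CPM in males and differed by -1.23 (SE 0.07, adjusted p = 6.9e-13). Rasgrf1, a Ras exchange factor gene, was higher in females by 0.995 (SE 0.09, adjusted p = 7.21e-10) and Asb4 by 0.54 (SE 0.06, adjusted p = 8.21e-08). Blcap, in whose intron Nnat lies, differed by -0.50 (SE 0.05, adjusted p = 1.61e-08). Rtl1, from the Dlk1 and Meg3 cluster, was lower in females by -0.60 (SE 0.10, adjusted p = 2.25e-05) and Kcnk9 by -0.96 (SE 0.14, adjusted p = 5.70e-06).

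The pathways the members act in were read from further lists. In IGF and insulin signalling, 2 of 17 tested genes were called after PSD + restraint over all mice (5.46% of all genes), both higher: the insulin receptor substrate gene Irs2 (0.9998, SE 0.15, adjusted p = 4.4e-05) and the binding protein gene Igfbp4 (0.66, SE 0.16, adjusted p = 0.00708). Irs2 ranged from 29.9 to 90.0 CPM in restrained mice and from 19.7 to 36.4 CPM in the others. By sex (14.9% of all genes) 4 genes of this list were higher in females, among them Igf1r (0.41, SE 0.05, adjusted p = 3.27e-07), and 1 was lower, Igfbp1, which was at 0 counts in all 8 restrained females and at most 0.435 CPM in males. Among Notch genes, the pathway that DLK1 modifies, 3 of 14 were higher after PSD + restraint over all mice (5.46% of all genes): Hey1 (0.47, adjusted p = 0.000226), Jag1 (0.40, adjusted p = 0.0047) and Notch3 (0.40, adjusted p = 0.00819). Hes1, another Notch target, was lower after restraint (-0.44, adjusted p = 0.0217, edgeR over all mice).

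Of the other cyclin-dependent kinase inhibitors, 1 of 6 was called after PSD + restraint over all mice (5.46% of all genes), Cdkn1a (0.45, SE 0.12, adjusted p = 0.0162), with 11.5 to 21.4 CPM in the PSD + restraint mice and 8.55 to 12.97 CPM in the controls of both sexes, ranges that overlapped. Among 11 genes that set or keep imprints, such as DNA methyltransferases, 1 was called after PSD + restraint in the same fit, the DNA demethylase gene Tet1, which was lower (-0.45, SE 0.10, adjusted p = 0.00414). Nothing about these short lists is read from a single call. Uhrf1 was lower in females than in males (-0.46, SE 0.12, adjusted p = 0.00543). Plag1 and Plagl2, the relatives of Plagl1, were not called for any treatment.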

How the data were processed

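RNA of whole pituitaries from 28 mice had been sequenced from stranded mRNA libraries. The authors aligned reads with MapSplice to mm10 and counted them per gene with HTSeq 0.9.1 in its intersection-nonempty mode, and deposited a table of raw counts, which was used here. Whether counting used strand is not given in the sources used here. A deposited table of normalized values was not used. Every column of the count table was matched to a mouse by its title.

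Counts were fitted with edgeR 4.0.16 (R 4.3.3, quasi-likelihood test, TMM, filterByExpr), with 1 mean per group within females and males, and with sex, PSD, restraint and their interaction over all mice. P-values were adjusted by the Benjamini-Hochberg method over all 18059 (females), 18271 (males) or 18936 (all mice) genes tested. Scripts were tested on simulated data. Correlations were tested with 100000 permutations within groups, on log2 CPM (prior count 2) without group means. Alternatives were DESeq2 1.42.0, other normalization and filters, marker scores as covariates, a replicate block and leaving out each mouse.

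The members and gene lists were chosen with earlier results of these data known. The choroid plexus list, the sex test in controls alone, the genes near Mest and the relations with marker genes were chosen after seeing the data, as were the genes whose levels illustrate the lists. Genes named from a list were those called, with Plag1 and Plagl2 named as the whole of their list. The labels call mice separate samples, and p-values measure the spread between them. Mice were housed in groups, and cage mates were deprived of sleep together in a tank. The labels name no cage or tank, so whether the p-values include any spread between tanks is not known.

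Summed marker levels, lowest to highest mouse in CPM, were 60060 to 226400 for somatotropes, 30870 to 231700 for lactotropes, 532 to 2068 for gonadotropes, 205 to 566 for thyrotropes, 11510 to 164600 for corticotropes, 11660 to 167200 for the neurointermediate lobe, 127 to 190 for stem and folliculostellate cells, 280 to 522 for connective tissue, 131 to 191 for endothelium, 40.8 to 62.7 for macrophages, 7.01 to 65.8 for forebrain, 125 to 1010 for erythroid cells, 2.76 to 21.2 for proliferating cells and 32.8 to 5636 for choroid plexus. Pomc is in the lists of both corticotropes and the neurointermediate lobe and makes up nearly all of both sums.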

Additional observations from a re-analysis of the deposited data

Results flagged for a closer look

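Igf2 in PSD female 3 stood apart from the other PSD females. It had 155.9 CPM, and its distance to the nearest of the other mice was 0.869 of the whole range of the group, above the critical value of 0.829 for 4 mice. It was the only flag among the 45 gene and group combinations of at least 4 mice, and a few such flags would arise by chance at this limit. The same mouse held 5335 CPM of Ttr, against a highest value of 6.28 CPM in the other 27 mice. The part of choroid plexus tissue in its Igf2 value was not tested, since no other mouse had a high choroid plexus score. Without this mouse the PSD difference of Igf2 in females was 0.33 on the log2 scale, against 1.75 with it.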

How the results depend on the processing

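No result changed direction past a threshold. Of the 16 counts of members called, some moved. Without the fold limit 1 member (Peg3) was called for PSD + restraint over all mice. With DESeq2 1 member (Cdkn1c) was called for PSD and 1 for PSD + restraint in females. For restraint after PSD in females 0 were called with the connective tissue score and 0 with the choroid plexus score, and for PSD + restraint in males 1 (Peg3) with the neurointermediate lobe score. For sex 1 was called in home cage controls alone. Leaving out a mouse gave 0 to 1 for PSD females, 0 to 1 for PSD + restraint females and 0 to 1 for restraint after PSD females. The cause was not tested. Mest kept its direction in all comparisons that hold restraint, with DESeq2's shrunken values of 1.11 and 1.10 for PSD + restraint and restraint after PSD in females, 0.98 for PSD + restraint in males and 1.09 over all mice.

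Same-numbered mice of different groups had a median r of -0.02 in females (-0.347 to 0.333) and -0.07 in males (-0.223 to 0.115). A median near 0 cannot show what the numbers stand for. Whether they mark a cage, a tank or an order of collection is not known. With the replicate block in edgeR, 0 members were called for restraint after PSD in females (Plagl1 0.61, adjusted p = 0.0599). For sex 1 member was called, and H19 was not (0.49, adjusted p = 0.125). Calls over all genes went from 5 to 24 for PSD in females. In males they went from 54 to 4 for restraint, 1 to 2 for PSD, 467 to 147 for PSD + restraint and 52 to 6 for restraint after PSD.

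Over all genes, DESeq2 called 196, 405, 638 and 273 genes in females for restraint, PSD, PSD + restraint and restraint after PSD, against 98, 5, 398 and 170 by edgeR, and 99, 76 and 176 in males for restraint, PSD and restraint after PSD, against 54, 1 and 52. With the neurointermediate lobe score the counts were 0 and 93 for PSD and PSD + restraint in females, 9 and 125 for PSD and restraint after PSD in males, and 20 and 660 for PSD and PSD + restraint over all mice (127 and 1033 without). Leaving out a mouse moved the counts over all genes to 45 to 178, 0 to 557, 158 to 613 and 88 to 239 in the same 4 female comparisons, to 19 to 63, 0 to 7, 162 to 528 and 3 to 92 in males, and to 165 to 271 for restraint, 31 to 227 for PSD and 772 to 1190 for PSD + restraint over all mice. H19, with 46 to 369 counts per mouse, was the member with the fewest counts.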
